A study of Homo sapiens with 59 samples.

Results

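SLC5A3, SLC6A6, SLC6A12, AKR1B1 and NFAT5 are 5 of the 60675 genes of the deposited count table. They are the listed genes of osmolyte transport and synthesis, with the transcription factor that controls them, and they were selected on their levels and changes in these libraries, with earlier results known. Their rows were found by gene symbol and followed over all 20 treatment groups. All 5 passed the filter on low counts, which left 16641 genes for testing. Levels and changes of the 5 genes are therefore given as a description and no p-value is given for them.

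Animal cells hold their volume in a hypertonic medium by taking up or making small organic solutes, the compatible osmolytes. SLC5A3 (also called SMIT1) takes up myo-inositol with sodium, SLC6A6 (TauT) takes up taurine, and SLC6A12 (BGT1) takes up betaine and GABA. AKR1B1, aldose reductase, makes sorbitol from glucose. NFAT5 (TonEBP) is the transcription factor that raises these genes in hypertonic cells by binding tonicity-responsive elements (TonE), and it is itself controlled by its amount, its nuclear import and its phosphorylation. In liver, the betaine and taurine carriers serve cell volume regulation, and taurine is also used to conjugate bile acids.

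RNA was sequenced from 59 libraries of HepG2, a line established from a human liver carcinoma, collected 24 h after treatment began. Cells received a water extract of 1 of 6 herbal medicines, each at 3 doses. Fresh ginger is Zingiberis Rhizoma Recens in the labels and dried ginger is Zingiberis Rhizoma. Both were given at 500, 100 and 20 ug/mL, as were Pinelliae Tuber, Zizyphi Fructus and Scutellariae Radix. Doses of Coptidis Rhizoma were 210, 42 and 8.4 ug/mL. The positive control was wortmannin, which inhibits phosphoinositide 3-kinase, at 10 uM, and the vehicle was DMSO. Groups held 3 libraries, except Pinelliae at 20 ug/mL with 2. Sample labels put the vehicle at 0.1% DMSO but the text on the series at 2%, and none gives the DMSO content of the other groups, so a treatment and a difference in solvent cannot be told apart in comparisons with vehicle. The first number of the sample titles also separates vehicle and wortmannin from the extracts. Only the vehicle titles put a letter A before that number, which sets vehicle apart from wortmannin too, and every title carries the label BatchA. The meaning of the number and of the letter is not stated. All 3 doses of any 1 extract carry the same number. No label ties replicates to separate cultures, and the errors and p-values therefore measure only the spread between these libraries, which may be technical.

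Libraries held 21582593 to 31392071 counts with a median of 25834177. In 3 libraries the counts stood apart from both other replicates: replicate 1 of dried ginger at 500 ug/mL, replicate 3 of Pinelliae at 100 ug/mL and replicate 1 of Zizyphi at 20 ug/mL. All 7 hepatocyte markers were detected in the tested genes, with ALB between 6325 and 12684 CPM (counts scaled to a common library size, with TMM factors). The summed hepatocyte markers were lowest with Coptidis at 210 ug/mL, between 22822 and 23869 CPM, next lowest with Scutellariae at 500 ug/mL, between 26919 and 27745 CPM, and lay between 39900 and 40525 CPM in vehicle. Of 7 markers of other cell types, COL1A2 was at 0 in every library and PTPRC and DCN had at most 1 count. The sum of these markers was 32.2 to 34.8 CPM in vehicle and 76.2 to 90.0 CPM with Coptidis at 210 ug/mL, and CD68, at 25.3 to 86.5 CPM over all libraries, made up most of it. The part of these shifts in the results was not tested.

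Promoter windows from RefSeq (GRCh38.p14), which run from 250 bases before to 50 bases after an annotated start, were matched for SLC5A3 and AKR1B1. They are shown because the factor that defines the group acts through DNA elements and because SLC5A3 shares its window with another gene. The printed stretches overlap no exon of GENCODE 29, though that of SLC5A3 lies inside the annotated MRPS6 gene, in an intron of 1 of its transcripts. Capitals mark GGAAA on either strand, the core of the NFAT recognition site. The SLC5A3 stretch is chr21:34073328-34073522 on the plus strand, and the AKR1B1 stretch is chr7:134459285-134459489 on the minus strand.
SLC5A3: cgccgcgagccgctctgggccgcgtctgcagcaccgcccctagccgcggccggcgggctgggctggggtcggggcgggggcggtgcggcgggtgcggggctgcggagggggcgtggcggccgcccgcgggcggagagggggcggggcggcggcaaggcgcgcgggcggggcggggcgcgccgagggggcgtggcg
AKR1B1: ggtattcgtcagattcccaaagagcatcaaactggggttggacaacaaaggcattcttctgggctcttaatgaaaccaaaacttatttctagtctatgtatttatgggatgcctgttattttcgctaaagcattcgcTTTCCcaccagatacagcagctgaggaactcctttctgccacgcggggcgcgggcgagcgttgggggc

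The SLC5A3 stretch is 88.2% G and C and held no GGAAA, whereas the AKR1B1 stretch is 48.8% G and C and held 1, as TTTCC on the printed strand. Neither whole window of 300 bases, nor a second window of AKR1B1 at another annotated start, held the TonE consensus or the letters TGGAAA on either strand. GGAAA is part of TGGAAA, and TGGAAA is part of the consensus. Of 34941 RefSeq windows, 61.2% held GGAAA, 20.8% held TGGAAA and 4.93% held the TonE consensus. No match says only that these letters are not in this window.

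SLC5A3 lies at chr21:34073570-34106262 on the plus strand (GRCh38, GENCODE 29). Its vehicle level was 47.6, 48.9 and 49.5 CPM. With fresh ginger at 500 ug/mL it was 174, 188 and 175 CPM, and with Coptidis at 210 ug/mL it was 187, 162 and 169.7 CPM. Dried ginger at 500 ug/mL gave 119, 148 and 124 CPM, and Scutellariae at 500 ug/mL gave 96.2, 85.8 and 98.6 CPM. Every library of these 4 groups, here termed the active top doses, lay above every vehicle library.

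In log2 terms the myo-inositol carrier rose by 1.88 (SE 0.07) with fresh ginger, 1.83 (SE 0.07) with Coptidis, 1.42 (SE 0.07) with dried ginger and 0.94 (SE 0.08) with Scutellariae at these top doses, or 3.68-fold, 3.55-fold, 2.68-fold and 1.92-fold. Changes at the middle doses were far smaller. At the middle doses the log2 change was 0.34 (SE 0.08) with fresh ginger, 0.24 (SE 0.08) with Coptidis, 0.12 (SE 0.08) with dried ginger and -0.17 (SE 0.08) with Scutellariae. Of these middle doses, fresh ginger and Coptidis passed the threshold of an adjusted p under 0.05 over all genes, here termed called. No bottom dose of these extracts was called. Fresh ginger, dried ginger and Scutellariae at 20 ug/mL lay wholly below vehicle. Their log2 changes were -0.21 (95% interval -0.36 to -0.05), -0.10 (95% interval -0.26 to 0.06) and -0.10 (95% interval -0.26 to 0.06). Coptidis at 8.4 ug/mL overlapped vehicle, with a log2 change of 0.05 (95% interval -0.10 to 0.21).

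Pinelliae at 500 ug/mL gave 46.0, 48.2 and 45.2 CPM of SLC5A3 and Zizyphi at 500 ug/mL gave 51.4, 52.5 and 48.1 CPM. Both groups overlapped vehicle, with 95% intervals of the log2 change from -0.22 to 0.09 and from -0.10 to 0.21. Wortmannin gave 40.4, 38.7 and 42.8 CPM, below every vehicle library, and the log2 change was -0.26 (SE 0.08). In the order of the 20 group means, from 179 CPM with fresh ginger at 500 ug/mL to 39.2 CPM with Pinelliae at 100 ug/mL, 5 of 19 neighbouring pairs had libraries that did not overlap. The leading pair, fresh ginger and Coptidis, did overlap, and the 5 separated pairs ran from Coptidis at 210 ug/mL down to dried ginger at 100 ug/mL.

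**Figure D1:**
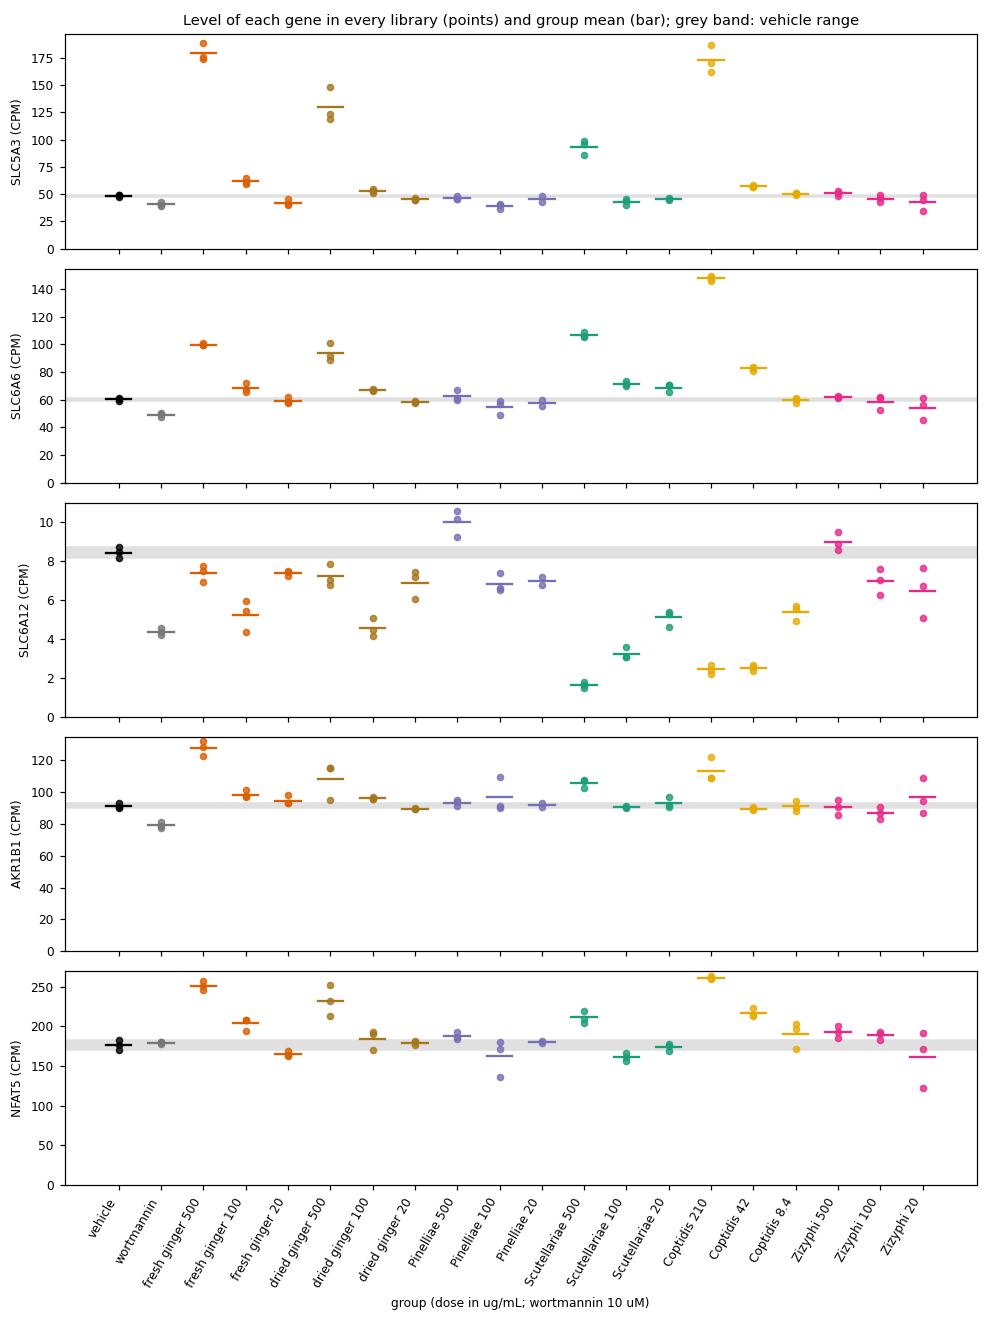
Level of each gene (CPM, linear axis from 0) in each of the 59 libraries, by group. Points are libraries, bars are group means and the grey band is the range of the 3 vehicle libraries. SLC5A3 stands highest with fresh ginger at 500 and Coptidis at 210 ug/mL, while SLC6A12 is lowest with Scutellariae at 500 ug/mL.

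SLC5A3 lies inside the span of MRPS6, a mitochondrial ribosomal protein gene at chr21:34073224-34143034 on the same strand. The division of reads between them is uncertain. The deposited values show it: 8 of 59 values of SLC5A3 and 8 of 59 of MRPS6 were whole within 0.05, against 59 of 59 for AKR1B1 and for SLC6A12. MRPS6 was 20.5 ± 1.07 CPM (SD, n = 3) in vehicle, 51.7 ± 3.49 with Coptidis at 210 ug/mL, 36.0 ± 0.84 with fresh ginger, 31.2 ± 1.51 with dried ginger and 28.9 ± 1.16 with Scutellariae at 500 ug/mL. In that order its log2 changes were 1.34, 0.81, 0.60 and 0.49, each smaller than that of SLC5A3 in the same comparison. MRPS6 took 29.6 ± 0.74% of the pair's summed CPM in vehicle and 16.7 ± 0.64% with fresh ginger at 500 ug/mL. When the counts of both genes were added before the fit, a choice made after seeing the data, the log2 changes were 1.64 with fresh ginger, 1.70 with Coptidis, 1.22 with dried ginger and 0.82 with Scutellariae.

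**Figure D2:**
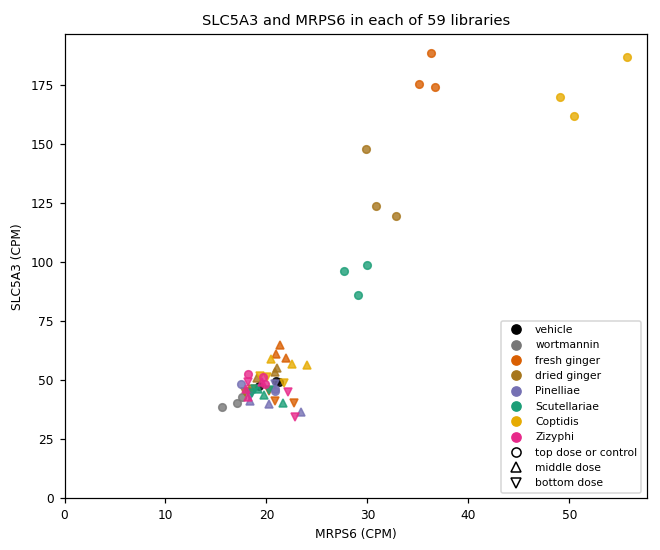
SLC5A3 against MRPS6 in each of the 59 libraries (CPM on both axes, from 0). Colours are extracts or controls and shapes are doses. The top doses of both gingers, Scutellariae and Coptidis lie outside the cloud of other libraries on both axes, and Coptidis lies farthest along MRPS6.

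SLC6A6, at chr3:14402576-14489349 on the plus strand, was 60.6, 61.1 and 59.05 CPM in vehicle. The taurine carrier was highest with Coptidis at 210 ug/mL, at 146, 149 and 148 CPM, and next with Scutellariae at 500 ug/mL, at 106, 105 and 109 CPM. Fresh ginger at 500 ug/mL gave 99.2, 99.1 and 101 CPM and dried ginger gave 101, 91.4 and 88.8 CPM. All libraries of these 4 groups lay above vehicle.

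The log2 changes of SLC6A6 were 1.29 (SE 0.06) with Coptidis and 0.82 (SE 0.06) with Scutellariae. Fresh ginger gave 0.73 (SE 0.06) and dried ginger 0.64 (SE 0.06). The fold of SLC6A6 was 2.45 with Coptidis and 1.66 with fresh ginger, where SLC5A3 had 3.55 and 3.68, and the difference between the genes was not tested. SLC6A6 was also called at 3 middle doses. Fresh ginger at 100 ug/mL gave 67.5, 72.3 and 65.8 CPM, a log2 change of 0.19 (SE 0.06). Coptidis at 42 ug/mL gave 83.9, 83.1 and 80.5 CPM, a log2 change of 0.45 (SE 0.06), and Scutellariae at 100 ug/mL gave 71.6, 69.6 and 73.5 CPM, a log2 change of 0.25 (SE 0.06).

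Scutellariae at 20 ug/mL also had every SLC6A6 library above vehicle, at 70.4, 70.3 and 65.6 CPM, but its log2 change of 0.19 (95% interval 0.07 to 0.32) was not called. Pinelliae at 500 ug/mL overlapped vehicle at 60.1 to 66.9 CPM. Zizyphi at 500 ug/mL, at 61.2 to 62.3 CPM, lay just above the vehicle range with a log2 change of 0.04 (95% interval -0.09 to 0.16). Wortmannin had the lowest group mean of SLC6A6, with 47.4, 49.8 and 50.6 CPM and a log2 change of -0.29 (SE 0.06).

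SLC6A12, at chr12:190077-214570 on the minus strand, moved the other way at the top doses of Scutellariae and Coptidis. It was the least abundant of the 5 genes, with 36 to 288 counts per library, and vehicle libraries held 8.13, 8.70 and 8.45 CPM. Scutellariae at 500 ug/mL gave 1.78, 1.49 and 1.65 CPM, Coptidis at 210 ug/mL gave 2.22, 2.68 and 2.43 CPM, and Coptidis at 42 ug/mL gave 2.65, 2.34 and 2.54 CPM. The betaine and GABA carrier was thus 5.13-fold, 3.45-fold and 3.35-fold lower than in vehicle, with log2 changes of -2.36 (SE 0.13), -1.79 (SE 0.12) and -1.74 (SE 0.12).

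At the bottom doses of Scutellariae and Coptidis SLC5A3 was not called, whereas SLC6A12 was already lower. With Scutellariae at 20 ug/mL SLC6A12 was 4.62, 5.30 and 5.39 CPM, a log2 change of -0.73 (SE 0.10). At 100 ug/mL it was 3.06, 3.08 and 3.61 CPM, a log2 change of -1.37 (SE 0.11). With Coptidis at 8.4 ug/mL it was 5.54, 4.91 and 5.68 CPM, a log2 change of -0.65 (SE 0.10). Libraries of the 3 Scutellariae doses did not overlap one another, while those of Coptidis at 42 and 210 ug/mL did.

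Both gingers gave a lower level of SLC6A12 at the middle dose than at either other dose. Fresh ginger was 7.48, 6.95 and 7.75 CPM at 500 ug/mL, 5.97, 5.43 and 4.35 CPM at 100 ug/mL, and 7.46, 7.22 and 7.42 CPM at 20 ug/mL. Dried ginger was 7.03, 7.86 and 6.75 CPM at 500 ug/mL, 4.13, 5.07 and 4.44 CPM at 100 ug/mL, and 7.44, 6.05 and 7.17 CPM at 20 ug/mL. In both gingers the middle dose lay wholly below both other doses. Its log2 change from vehicle was -0.68 (SE 0.10) for fresh and -0.88 (SE 0.11) for dried ginger, and both were called, while the top and bottom doses of either ginger were not.

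Wortmannin lowered SLC6A12 to 4.58, 4.18 and 4.37 CPM, a log2 change of -0.94 (SE 0.11) and 1.92-fold below vehicle. Pinelliae at 500 ug/mL, with 10.2, 9.25 and 10.5 CPM, was the only treated group of 19 that lay wholly above vehicle, at a log2 change of 0.24 (95% interval 0.06 to 0.43) that was not called. Zizyphi at 500 ug/mL overlapped vehicle, and the other 17 groups lay wholly below it. All 6 bottom doses were among them, 3 of them with no call. All 19 groups share the 3 vehicle libraries, and how many other genes lay wholly below vehicle was not counted. Extract, solvent and title number cannot be told apart in these differences.

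AKR1B1, at chr7:134442350-134459284 on the minus strand, had the smallest ratio of the highest to the lowest group mean of the 5 genes, 1.61, close to the 1.62 of NFAT5. Vehicle libraries held 90.1, 90.6 and 93.4 CPM. Fresh ginger at 500 ug/mL gave 123, 132 and 128 CPM, Coptidis at 210 ug/mL gave 122, 109 and 109 CPM, and Scutellariae at 500 ug/mL gave 108, 103 and 107 CPM. Dried ginger at 500 ug/mL gave 95.3, 115 and 116 CPM, and its lowest value is from the library that stood apart. All 4 groups lay above vehicle. The log2 changes of aldose reductase were 0.48 (SE 0.06), 0.31 (SE 0.06), 0.21 (SE 0.06) and 0.25 (SE 0.06) in that order, and without the library apart the last was 0.33.

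No middle or bottom dose of any extract had a called change in AKR1B1, and Pinelliae and Zizyphi at 500 ug/mL overlapped vehicle. With wortmannin AKR1B1 was 77.7, 78.8 and 81.2 CPM, wholly below vehicle, with a log2 change of -0.21 (SE 0.06). Its close relative AKR1B10, a reductase of retinal and other aldehydes, moved far more: from 97.5 ± 0.50 CPM in vehicle to 430.2 ± 20.9 with Coptidis at 210 ug/mL and 429 ± 12.7 with fresh ginger at 500 ug/mL (SD, n = 3), while with wortmannin it fell by a log2 change of -0.58. The deposited values of AKR1B1 were whole in 59 of 59 libraries and those of AKR1B10 in 51. AKR1B15 had at most 3 reads in a vehicle library and at most 24 with Coptidis at 210 ug/mL.

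NFAT5 itself, at chr16:69565094-69704666 on the plus strand, was 176, 171 and 184 CPM in vehicle. Coptidis at 210 ug/mL gave 259.7, 262 and 263 CPM, fresh ginger at 500 ug/mL gave 257, 247 and 251 CPM, and dried ginger at 500 ug/mL gave 213, 252 and 232 CPM. Scutellariae at 500 ug/mL gave 209.7, 205 and 219 CPM. All libraries of these groups lay above vehicle, and the log2 changes were 0.56 (SE 0.08), 0.51 (SE 0.08), 0.40 (SE 0.08) and 0.26 (SE 0.08).

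Among lower doses, Coptidis at 42 ug/mL raised NFAT5 to 215, 223 and 213 CPM, a called log2 change of 0.30 (SE 0.08). Fresh ginger at 100 ug/mL, at 194 to 209 CPM, also lay above vehicle, with a log2 change of 0.21 (95% interval 0.04 to 0.37) that was not called. Scutellariae at 100 ug/mL, at 156 to 167 CPM, and fresh ginger at 20 ug/mL, at 162 to 169.6 CPM, lay wholly below vehicle, with log2 changes of -0.13 (95% interval -0.29 to 0.03) and -0.10 (95% interval -0.26 to 0.06) that were not called. Wortmannin left NFAT5 at 177 to 181 CPM, within the vehicle range, with a 95% interval of -0.14 to 0.18. Pinelliae and Zizyphi at 500 ug/mL had all libraries slightly above vehicle, with log2 changes of 0.09 (95% interval -0.07 to 0.25) and 0.13 (95% interval -0.03 to 0.29) that were not called.

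NFAT5 overlaps a non-coding transcript at its end on the same strand with a median of 488 counts, and 5 of its 59 deposited values were whole, so part of its counts is an estimate. The annotated exons of NFAT5 add up to 16401 bases and those of SLC5A3 to 11576, and both genes were at the lowest value of their group in each of the 3 libraries that stood apart. Replicate 1 of Zizyphi at 20 ug/mL had 122.5 CPM of NFAT5 against 172 and 192 in the other replicates, and replicate 3 of Pinelliae at 100 ug/mL had 136 against 181 and 171. For 516 tested genes of similar exon length, the median log2 change was -0.09 with Zizyphi at 20 ug/mL and 0.07 with Coptidis at 210 ug/mL, beside -0.12 and 0.56 for NFAT5. The part of exon length in these changes was not tested.

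**Figure D3:**
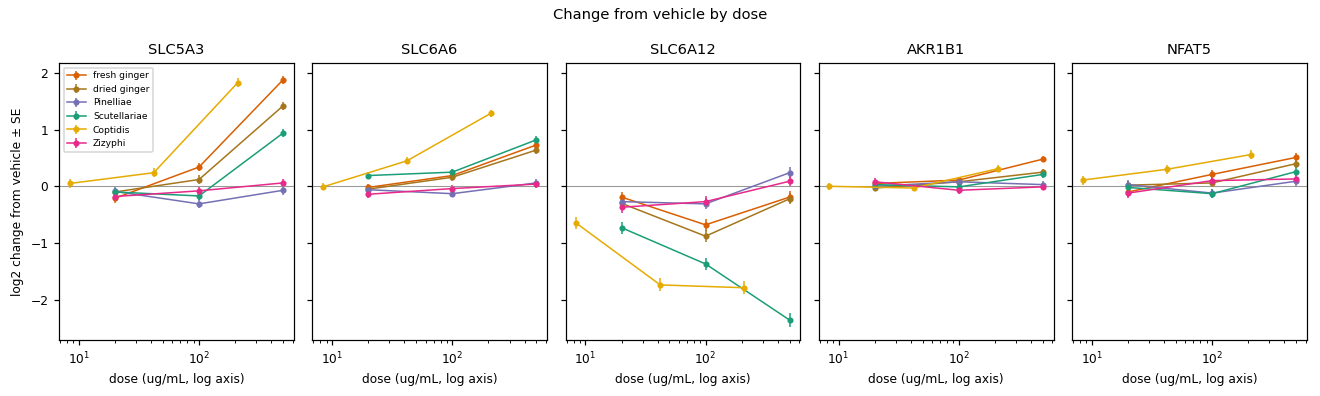
Log2 change from vehicle (± SE) against dose (ug/mL, log axis) for each gene, with a line per extract. SLC5A3, SLC6A6, AKR1B1 and NFAT5 bend upward at the top dose of both gingers, Scutellariae and Coptidis, while SLC6A12 falls over the doses of Scutellariae and dips at 100 ug/mL in both gingers.

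The counts of members called are set out here beside the share of all 16641 genes called, and nothing is read from them because the choice of members used these comparisons. All comparisons with vehicle share its 3 libraries. With Coptidis at 210 ug/mL 4 of 5 were called higher (34.8% of all genes) and 1 lower (34.5%). With Scutellariae at 500 ug/mL 4 were called higher (24.7%) and 1 lower (25.5%). Fresh ginger at 500 ug/mL had 4 higher (23.5%) and 0 lower (22.5%), and dried ginger had 4 higher (21.5%) and 0 lower (20.9%). The 4 higher genes were SLC5A3, SLC6A6, AKR1B1 and NFAT5 in each, and the lower gene was SLC6A12. Wortmannin had 0 higher (16.2%) and 4 lower (16.0%), all but NFAT5. Pinelliae at 500 ug/mL had 0 higher (2.64%) and 0 lower (1.93%), and Zizyphi at 500 ug/mL had 0 higher (2.09%) and 0 lower (1.53%).

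At the middle doses, counted in either direction, 4 members were called with Coptidis at 42 ug/mL (46.9% of all genes), 3 with fresh ginger (22.2%), 2 with Scutellariae (14.6%) and 1 with dried ginger (17.5%). None was called with Pinelliae (0.204%) or Zizyphi (0.228%) at 100 ug/mL. At the bottom doses 1 was called with Coptidis (16.0%), 1 with Scutellariae (4.74%) and 1 with Zizyphi (1.99%), each time SLC6A12. None was called with fresh ginger (5.1%), dried ginger (0.0841%) or Pinelliae (0.00601%). The call with Zizyphi at 20 ug/mL ended without the library that stood apart, where the log2 change of SLC6A12 was -0.23 rather than -0.37. It also ended without any 1 of the 3 vehicle libraries or without replicate 2 of Zizyphi, whereas 4 members were called without replicate 3.

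The top against the bottom dose of the same extract involves no vehicle library and stays within a title number. With Coptidis 5 members were called (65.8% of all genes in either direction) and with Scutellariae 5 (49.9%). With fresh ginger 4 were called (48.1%) and with dried ginger 4 (41.0%). SLC5A3 was higher at the top dose by 2.09 (SE 0.07) in log2 terms with fresh ginger, 1.77 (SE 0.07) with Coptidis, 1.52 (SE 0.07) with dried ginger and 1.05 (SE 0.08) with Scutellariae. SLC6A6 was higher by 1.3 (SE 0.06) with Coptidis, 0.75 (SE 0.06) with fresh ginger, 0.68 (SE 0.06) with dried ginger and 0.63 (SE 0.06) with Scutellariae.

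SLC6A12 was lower at the top dose with Scutellariae, by a log2 change of -1.63 (SE 0.14), and with Coptidis, by -1.14 (SE 0.13). With fresh and dried ginger the 95% intervals of its change ran from -0.19 to 0.21 and from -0.13 to 0.27. With Pinelliae 1 member was called (1.9% of all genes), SLC6A12, which was higher by 0.52 (SE 0.11), and this call ended without replicate 3 of Pinelliae at 20 ug/mL, which left a single library in that group. With Zizyphi 3 were called (7.22%), SLC6A12 at 0.46 (SE 0.10), NFAT5 at 0.25 (SE 0.08) and SLC5A3 at 0.24 (SE 0.08). None of these was called without replicate 1 of Zizyphi at 20 ug/mL, which stood apart, and the changes were then 0.32, 0.09 and 0.11. Leaving out any 1 library of Zizyphi at 500 ug/mL left 1 member called.

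**Figure D4:**
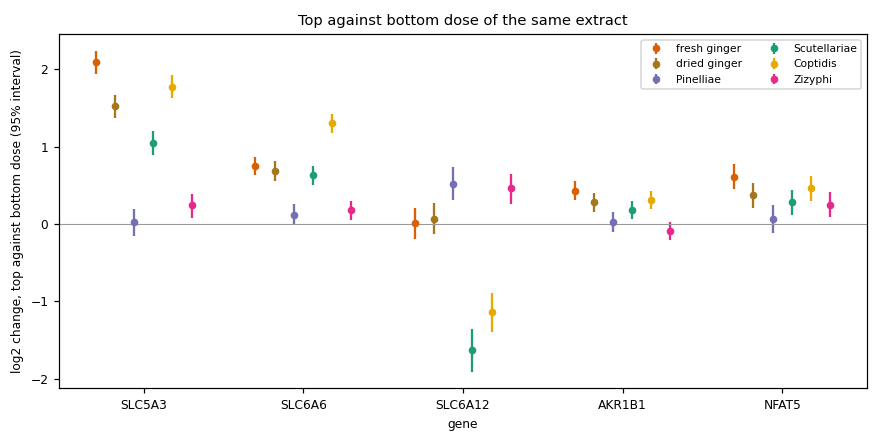
Log2 change of each gene at the top against the bottom dose of the same extract, with 95% intervals from the fitted model. SLC6A12 lies below 0 with Scutellariae and Coptidis and above 0 with Pinelliae and Zizyphi, and SLC5A3 ranges from 0.02 with Pinelliae to 2.09 with fresh ginger.

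Fresh and dried ginger were compared with each other at the same doses. At 500 ug/mL 2 members were called (1.83% of all genes). SLC5A3 was higher with fresh ginger by 0.46 (SE 0.07) and AKR1B1 by 0.23 (SE 0.06) in log2 terms, with no overlap of libraries. Without the dried ginger library that stood apart the differences were 0.39 and 0.14. For SLC6A6, SLC6A12 and NFAT5 the differences were 0.09 (95% interval -0.03 to 0.21), 0.04 (95% interval -0.17 to 0.24) and 0.11 (95% interval -0.05 to 0.27), and libraries overlapped. None was called at 100 ug/mL (0.379%) or 20 ug/mL (0.0481%). The largest difference among the 5 genes at 100 ug/mL was that of SLC5A3, at 0.22 (95% interval 0.06 to 0.37), with no overlap of libraries.

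Levels between genes are compared per kilobase of annotated exon. In vehicle AKR1B1 was at 25.0 ± 0.48 CPM per kilobase, NFAT5 at 10.8 ± 0.39, SLC6A6 at 7.30 ± 0.13, SLC5A3 at 4.20 ± 0.08 and SLC6A12 at 1.60 ± 0.05 (SD, n = 3). With Coptidis at 210 ug/mL SLC6A6 reached 17.9 and SLC5A3 14.9 CPM per kilobase, beside 31.0 for AKR1B1, 15.9 for NFAT5 and 0.46 for SLC6A12. The order of the carriers for taurine, myo-inositol and betaine by this level was the same in vehicle and with Coptidis. With fresh ginger at 500 ug/mL SLC5A3, at 15.5 CPM per kilobase, stood above SLC6A6 at 12.1. The order of the group means varied by gene: the ratio of the highest to the lowest group mean was 6.09 for SLC6A12, 4.57 for SLC5A3, 3.00 for SLC6A6, 1.62 for NFAT5 and 1.61 for AKR1B1.

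Other genes of osmoregulation were taken from 4 lists of 66 genes, of which 59 passed the filter and were tested with edgeR's quasi-likelihood test. The lists were drawn up with earlier results of these data in view and are no independent evidence. Adjusted p-values are printed for genes picked for a large called change, so a value under 0.05 was fixed by that choice. They are a description only. With Coptidis at 210 ug/mL 32 rose and 20 fell, where 34.8% of all genes were called higher and 34.5% lower. Fresh ginger at 500 ug/mL had 29 higher and 16 lower (23.5% and 22.5% of all genes), dried ginger 23 and 15 (21.5% and 20.9%) and Scutellariae 22 and 17 (24.7% and 25.5%). Wortmannin had 17 higher and 12 lower (16.2% and 16.0%), Pinelliae 5 and 0 (2.64% and 1.93%) and Zizyphi 3 and 0 (2.09% and 1.53%). The median log2 change of the 59 was 0.20 with Coptidis, 0.12 with fresh ginger, 0.08 with dried ginger and 0.01 with Scutellariae, where that of all genes was 0.00, 0.00, 0.00 and 0.01. No test of a list as a whole was made.

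Among 17 tested genes for other osmolytes, 7 rose and 8 fell with Coptidis at 210 ug/mL, beside 34.8% and 34.5% of all genes. SLC38A2, a carrier of small neutral amino acids, went from 829 ± 23.3 to 1898 ± 42.4 CPM, a log2 change of 1.19 (SE 0.04, adjusted p = 1.97e-31 by edgeR), and GPCPD1, which splits glycerophosphocholine, went from 26.8 ± 2.09 to 63.7 ± 1.20 CPM (edgeR adjusted p = 4.25e-28). CDO1, which oxidises cysteine on the route to taurine, went from 6.70 ± 0.54 to 1.93 ± 0.22 CPM (edgeR adjusted p = 7.69e-19). BHMT, which uses betaine to methylate homocysteine, went from 6.80 ± 1.01 to 2.10 ± 0.36 CPM (edgeR adjusted p = 1.02e-15).

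CDO1 and BHMT were also lower at the other active top doses. The log2 changes of CDO1 were -1.13 with fresh ginger, -0.91 with dried ginger and -1.20 with Scutellariae, and those of BHMT were -1.40, -1.58 and -1.10. With wortmannin BHMT instead rose by 0.73 (SE 0.11, edgeR adjusted p = 1.94e-07), together with CDO1, by 0.43 (SE 0.09), and CSAD, which makes hypotaurine, by 0.52 (SE 0.09). CSAD fell at the active top doses, by log2 changes of -1.05 with Coptidis, -0.41 with fresh ginger, -0.29 with dried ginger and -0.29 with Scutellariae. The creatine carrier SLC6A8 and the sorbitol-oxidising enzyme SORD were the 2 listed osmolyte genes that fell with wortmannin, by log2 changes of -0.28 and -0.08. SORD fell at the active top doses too, by -0.82 with Coptidis and by -0.37 to -0.43 with the others. SLC5A11, a second sodium-coupled inositol carrier, rose with fresh ginger (log2 change 1.02), dried ginger (1.09), Scutellariae (0.86) and Coptidis (0.57), from 2.62 ± 0.48 CPM in vehicle. The counts of this list were 7 higher and 6 lower with fresh ginger (23.5% and 22.5% of all genes) and 6 and 6 with dried ginger (21.5% and 20.9%). They were 6 and 7 with Scutellariae (24.7% and 25.5%) and 6 and 2 with wortmannin (16.2% and 16.0%).

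SLC6A8 rose with dried ginger by a log2 change of 0.74 (SE 0.05), to 119 ± 4.56 from 71.3 ± 5.04 CPM, and SLC38A2 rose with fresh ginger by 0.84 (SE 0.04). ISYNA1, which makes inositol phosphate from glucose phosphate, rose with Scutellariae by 0.50 (SE 0.07) but fell with Coptidis by a log2 change of -0.94 (SE 0.08), from 32.9 ± 2.85 to 17.1 ± 1.80 CPM. With Pinelliae 2 genes of this list rose and 0 fell (2.64% and 1.93% of all genes). CHDH, which makes betaine aldehyde from choline, rose by 0.21 (SE 0.04), and PNPLA6, a phospholipase, by 0.20 (SE 0.06). With Zizyphi CHDH alone rose, by 0.17 (SE 0.04), where 2.09% of all genes were called higher. CHDH also rose with wortmannin, by 0.37 (SE 0.04), and fell with Coptidis, by a log2 change of -0.80 (SE 0.04), from 131 ± 4.15 to 75.2 ± 1.04 CPM. SLC6A13, a relative and neighbour of SLC6A12, had at most 8 counts in a library and was not tested.

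Of 14 other NFAT5 and hypertonicity targets, 8 were tested, and the rest had at most 11 counts in a library. These 8 did not share a direction. With Coptidis 4 rose and 3 fell (34.8% and 34.5% of all genes), with Scutellariae 5 and 2 (24.7% and 25.5%), with fresh ginger 4 and 3 (23.5% and 22.5%), with dried ginger 3 and 3 (21.5% and 20.9%), and with wortmannin 1 and 1 (16.2% and 16.0%). TSC22D2 rose with Coptidis from 25.2 ± 1.40 to 54.4 ± 1.31 CPM (edgeR adjusted p = 4.09e-23) and with dried ginger by a log2 change of 0.42. SGK1, a kinase that also answers to glucocorticoids and serum, fell from 57.9 ± 3.27 to 22.8 ± 0.73 CPM with Coptidis (edgeR adjusted p = 6.98e-30), to 24.5 ± 0.86 with Scutellariae and to 42.5 ± 1.10 with fresh ginger. It rose with wortmannin to 79.1 ± 0.70 CPM and with Pinelliae to 65.2 ± 3.08 CPM.

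The chaperone genes HSPA1A and HSPA1B are near-identical copies, so their counts are uncertain one by one. HSPA1A went from 147 ± 2.39 CPM in vehicle to 217 ± 10.5 with Scutellariae, 115 ± 4.61 with dried ginger, 113 ± 8.51 with fresh ginger and 169 ± 4.13 with Coptidis. HSPA1B went from 246 ± 13.0 to 332 ± 17.9 with Scutellariae, 187 ± 9.67 with dried ginger, 178 ± 9.12 with fresh ginger and 201 ± 8.03 with Coptidis. With Coptidis these copies were thus called in opposite directions, at log2 changes of 0.20 and -0.29. S100A4 rose with fresh ginger by a log2 change of 0.46 (SE 0.12) and fell with Scutellariae by a log2 change of -0.65 (SE 0.14). ATP1B1, the beta subunit of the sodium pump, was the 1 gene of this list that fell with wortmannin, by a log2 change of -0.10, and it rose at the active top doses by 0.10 to 0.35. TNF was called with both gingers and Coptidis, but on 0 or 1 reads per vehicle library and 2 to 6 reads with fresh ginger, 15 to 21 with dried ginger and 6 to 14 with Coptidis, so its fold is not given.

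All 15 listed regulators of NFAT5 were tested. With Coptidis 6 rose and 7 fell (34.8% and 34.5% of all genes), with fresh ginger 6 and 5 (23.5% and 22.5%), with dried ginger 4 and 5 (21.5% and 20.9%), with Scutellariae 2 and 7 (24.7% and 25.5%), and with wortmannin 5 and 4 (16.2% and 16.0%). MAP2K6, a kinase that activates p38, fell at each of the 4 active top doses, from 11.6 ± 0.41 CPM in vehicle to 1.98 ± 0.05 with Coptidis (edgeR adjusted p = 4.5e-27), 5.48 ± 0.30 with fresh ginger, 6.42 ± 0.76 with dried ginger and 7.16 ± 0.41 with Scutellariae. PARP1, a DNA repair enzyme, fell with Coptidis from 222 ± 4.32 to 121 ± 2.44 CPM and with Scutellariae to 167 ± 2.49 CPM. The tyrosine kinase FYN rose with Coptidis by a log2 change of 0.69 (SE 0.05) and with dried ginger by 0.28 (SE 0.05), and the anchoring protein AKAP13 rose with Coptidis by 0.60 (SE 0.08).

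Smaller changes made up the rest of the named regulators. The phosphatase PTPN11 rose by 0.28 with fresh ginger and 0.22 with Scutellariae in log2 terms, and the tyrosine kinase ABL1 by 0.23 and 0.19. PTPN11 fell with wortmannin, by a log2 change of -0.19. MAP2K3, another p38 activator, rose by 0.29 with dried ginger, 0.25 with Zizyphi and 0.19 with Pinelliae, and fell with wortmannin by a log2 change of -0.14. It was the only regulator called with Pinelliae, where 2.64% of all genes were called higher and 1.93% lower. PRKACA, a catalytic subunit of protein kinase A, fell with fresh ginger by a log2 change of -0.30, and the helicase DHX9 fell with dried ginger by -0.24. With wortmannin KPNB1, an importin, went from 613 ± 8.53 to 485 ± 11.5 CPM and DHX9 from 338 ± 3.05 to 278 ± 2.38 CPM, while MAP3K3 and CDK5 rose by 0.26 and 0.25 and PRKACA by 0.18. MAP3K3 fell with Scutellariae by a log2 change of -0.20 and CDK5 with Coptidis by -0.52.

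Cell volume ion transport held 19 genes, all tested. With Coptidis 15 rose and 2 fell (34.8% and 34.5% of all genes), with fresh ginger 12 and 2 (23.5% and 22.5%), with dried ginger 10 and 1 (21.5% and 20.9%) and with Scutellariae 9 and 1 (24.7% and 25.5%). Its median log2 change was 0.63 with Coptidis, 0.20 with fresh ginger, 0.22 with dried ginger and 0.09 with Scutellariae, where that of all genes was 0.00, 0.00, 0.00 and 0.01. With wortmannin 5 rose and 5 fell (16.2% and 16.0%). WNK4, a kinase that controls chloride cotransporters, went from 11.0 ± 0.43 CPM in vehicle to 32.1 ± 2.36 with Coptidis, 21.1 ± 0.47 with fresh ginger, 17.7 ± 0.98 with dried ginger and 19.1 ± 0.99 with wortmannin. It was also the 1 gene of this list called with Pinelliae, at a log2 change of 0.35 (SE 0.08), where 2.64% of all genes were called higher.

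The volume-regulated anion channel lets chloride and also taurine and myo-inositol out of swollen cells. With Coptidis 4 of its 5 listed subunits were called higher and LRRC8D lower, beside 34.8% and 34.5% of all genes. With either ginger at 500 ug/mL LRRC8A and LRRC8B were called higher and LRRC8D lower, while LRRC8C and LRRC8E were not called. LRRC8A, the obligate subunit of the channel, went from 45.4 ± 1.26 to 119 ± 0.98 CPM with Coptidis, a log2 change of 1.39 (SE 0.04, edgeR adjusted p = 3.28e-34). It was 74.6 ± 1.00 CPM with fresh ginger, 69.5 ± 2.12 with dried ginger, 61.6 ± 1.61 with Scutellariae and 51.0 ± 0.74 with Zizyphi, all called higher. LRRC8C went from 0.845 ± 0.217 to 3.81 ± 0.15 CPM with Coptidis and to 1.64 ± 0.35 with Scutellariae. LRRC8D fell at each of the 4 active top doses, from 68.7 ± 0.52 CPM to between 54.3 and 56.6.

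The sodium-potassium-chloride cotransporter SLC12A2, which brings ions into shrunken cells, rose with dried ginger from 21.6 ± 2.13 to 33.2 ± 3.91 CPM, with fresh ginger by a log2 change of 0.54 and with Coptidis by 0.34. The kinase OXSR1 fell with Coptidis by a log2 change of -0.39 and with wortmannin by -0.19, and the chloride conductance regulator CLNS1A fell with fresh ginger by -0.21.

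**Figure D5:**
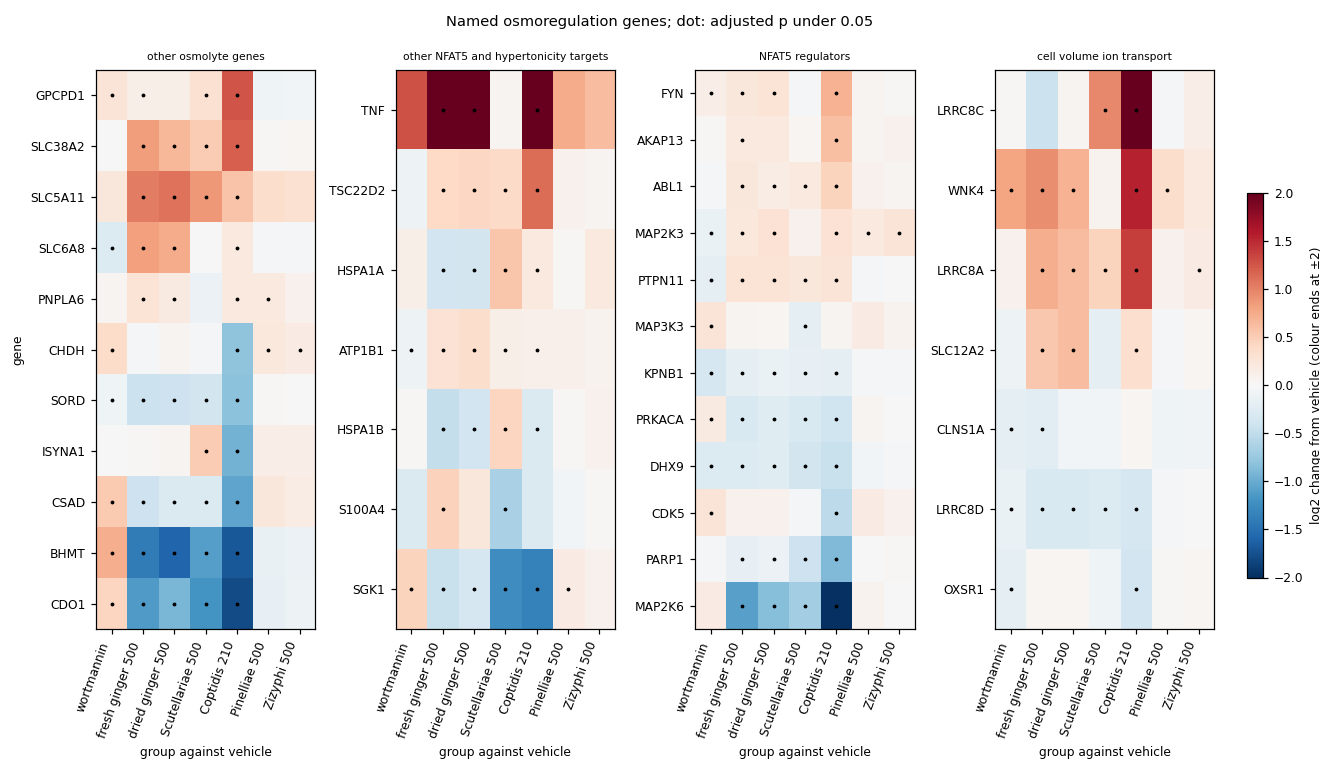
Log2 change from vehicle (colour, ends at ±2) of 37 genes of the 4 lists, those named in the text, with wortmannin and the top dose of each extract. Dots mark an adjusted p under 0.05, and genes are ordered by their change with Coptidis. Of these 37 chosen genes, 18 have a dot and are higher and 16 have a dot and are lower with Coptidis, while Pinelliae and Zizyphi have 5 and 3 dots.

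Among the calcineurin-dependent relatives of NFAT5, NFATC2 and NFATC3 were tested. NFATC2 fell where NFAT5 rose, from 27.5 ± 1.73 CPM in vehicle to 13.5 ± 1.5 with Coptidis, 16.8 ± 2.25 with fresh ginger, 17.7 ± 0.98 with Scutellariae and 20.4 ± 0.45 with dried ginger, and it rose with wortmannin to 32.5 ± 1.01. NFATC3 fell with Scutellariae from 142 ± 2.54 to 115 ± 1.44 CPM, and in the other 6 comparisons its log2 change was between -0.09 and 0.03 and was not called.

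Likeness over the 20 group means of log2 CPM is a description. These means share libraries, depth and the 4 active top doses, which hold most of the range of SLC5A3, SLC6A6 and AKR1B1. Without these doses the group means of NFAT5 still ran from 162 CPM to 217 CPM, the latter with Coptidis at 42 ug/mL. Its highest group mean was 261 CPM. For SLC6A12 the lowest group means were those of the top and middle doses of Scutellariae and Coptidis. SLC5A3 was most like MKLN1 (Pearson r = 0.97, Spearman rho = 0.97), FAF2 (r = 0.96) and GPAT4 (r = 0.96), and NFAT5 was most like MKLN1 (r = 0.97), MYSM1 (r = 0.96) and ARFGEF3 (r = 0.96). SLC6A6 was most like OSBPL10, GCLC and LUCAT1, each at r = 0.98. AKR1B1 was most like SLCO4A1 (r = 0.91), JMJD6 (r = 0.90) and ABTB2 (r = 0.89). SLC6A12 was most like AGFG2 (r = 0.93), MFSD9 (r = 0.91) and PIK3R1 (r = 0.91), a regulatory subunit of phosphoinositide 3-kinase.

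Among the members, SLC5A3 and NFAT5 had r = 0.92 and rho = 0.92, and SLC5A3 and SLC6A6 had r = 0.90 and rho = 0.80. SLC5A3 and AKR1B1 had r = 0.88 but rho = 0.50. SLC6A12 had r = -0.30 with SLC5A3, -0.58 with SLC6A6, -0.13 with AKR1B1 and -0.31 with NFAT5. Without the 2 groups farthest from the median of SLC5A3, its r was 0.84 with NFAT5 and 0.85 with SLC6A6. It was then 0.73 with AKR1B1 and -0.31 with SLC6A12. Without the 2 groups farthest from the median of SLC6A12, its r with SLC5A3 was 0.12, so the sign depends on which groups are left out.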

How the data were processed

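RNA of 59 HepG2 libraries in 20 groups was analysed. The authors deposited expected counts per gene, which they made with RSEM 1.3.3 after FastQC 0.11.9, Trim Galore 0.6.5 and STAR 2.7.3a on GRCh38 (hg38), per the submitters' processing notes. The sources used here do not give the annotation or strand setting, so reads of a gene and its antisense partner could not be told apart. Of nonzero values 24.44% were not whole within 1e-06, and all were rounded. The counts of whole values given per gene allow 0.05. The table held 267 columns, of which 208 were not used. Symbols were matched for 56558 identifiers, and GENCODE 29 gave coordinates for 57055.

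Counts were fitted with edgeR 4.0.16 (R 4.3.3, limma 3.58.1) by quasi-likelihood with TMM, filterByExpr and 20 group means, which left 16641 genes. The common dispersion was 0.00195, with 39 residual degrees of freedom. A gene was called where its two-sided p, adjusted over all genes by Benjamini-Hochberg, was under 0.05. CPM use TMM-scaled totals. Errors of log2 changes and 95% intervals come from this model, and genes of similar length have 80 to 125% of the member's annotated exon length. The scripts were tested on simulated data.

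The members, lists and tests were chosen with earlier results of these data known. Named genes are the 5 members, the 2 called genes with the largest change in each direction per list and comparison with a top dose or wortmannin, tested relatives and overlapping genes, and the 3 genes most like each member. Some genes that this rule names are not reported here. Libraries apart had a mean chi-square per gene above 15 against both other replicates. Same-numbered replicates are not stated to share a culture or day. Alternatives were DESeq2 1.42.0, its size factors, no filter, only the groups compared, a replicate block, and leaving out libraries.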

Additional observations from a re-analysis of the deposited data

Results flagged for a closer look

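For SLC6A12, the top against the bottom dose moved in opposite directions in 4 pairs of extracts. With Scutellariae and Coptidis every library of the top dose lay below every library of the bottom dose, and with Pinelliae and Zizyphi every one lay above. The log2 change with Pinelliae exceeded that with Scutellariae by 2.15 and that with Coptidis by 1.66. The change with Scutellariae minus that with Zizyphi was -2.09, and the change with Coptidis minus that with Zizyphi was -1.6. These differences were not tested. The calls with Pinelliae and with Zizyphi each ended without 1 library of the bottom dose, and Pinelliae at 20 ug/mL had 2 libraries.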

How the results depend on the processing

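The counts of members called at the 4 active top doses and with wortmannin, and of the top against the bottom dose of both gingers, Scutellariae and Coptidis, stayed within 1.5 times under all alternatives run. Lower doses and the weaker extracts did not. Members called with fresh ginger at 100 ug/mL went from 3 to 5 without the libraries apart and when only the 2 groups were fitted, and with fresh ginger at 20 ug/mL from 0 to 1 in these fits and with no filter. With dried ginger at 100 ug/mL they went from 1 to 2 with no filter or without the libraries apart, and to 3 with only the 2 groups. With Pinelliae at 100 ug/mL they went from 0 to 1 with no filter or DESeq2. With Scutellariae they went from 2 to 4 at 100 ug/mL with only the 2 groups, and from 1 to 2 at 20 ug/mL with no filter, without the libraries apart, with only the 2 groups or with DESeq2. With Zizyphi they went from 0 to 1 at 500 ug/mL with only the 2 groups. At 20 ug/mL they went from 1 to 2 with no filter and to 0 without the libraries apart or with only the 2 groups. From the top to the bottom dose of Zizyphi they went from 3 to 0 without the libraries apart or with only the 2 groups. Listed genes called with Zizyphi at 500 ug/mL went from 3 to 5 without the libraries apart and to 6 with only the 2 groups. The cause of these shifts was not tested.

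Leaving out 1 replicate at a time gave 1 to 6 listed genes called with Pinelliae at 500 ug/mL and 1 to 3 with Zizyphi. It gave 0 to 4 members with Zizyphi at 20 ug/mL, 0 to 1 for the top against the bottom dose of Pinelliae and 0 to 4 for that of Zizyphi. The lone library of Pinelliae at 20 ug/mL was then assumed to vary like the other groups. The listed count for Pinelliae was 3 without vehicle replicate 1, vehicle replicate 2 or Pinelliae 500 replicate 1 and 1 without its replicate 3, and that for Zizyphi was 1 without vehicle replicate 1 or 2. Named genes that were not called changed sign in 7 cases: NFATC3 with Coptidis (-0.02 to 0.05, leaving out 1 replicate at a time) and Pinelliae (-0.04 to 0.00), MRPS6 with Pinelliae (-0.10 to 0.02), and AKR1B10 with Zizyphi (-0.07 to 0.05, and 0.00 with no filter). No called change of a member reversed. Among other named genes 37 values lost their call and 2 gained one. Adding the counts of SLC5A3 and MRPS6 moved most called changes of SLC5A3 toward 0.

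Same-numbered replicates had residual correlations from -0.062 to 0.077, so no effect shared by the numbers was seen. These values cannot show whether such libraries shared a culture or day. With the replicate block the members called were 5 with Coptidis at 210 ug/mL, 5 with Scutellariae, 4 with either ginger at 500 ug/mL and 4 with wortmannin, as without it, and the listed genes called with Coptidis were 53 rather than 52. Depth limits SLC6A12 most, at 36 to 288 counts per library.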
